A study of Mus musculus with 20 samples.

Results

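Synaptic adhesion molecules are the membrane proteins that hold the presynaptic and the postsynaptic side of a synapse together and organize the release machinery and the receptors on either side. The 42 genes described here are neurexins, neuroligins, leucine-rich repeat proteins, LAR-type receptor phosphatases, calsyntenins, netrin-G proteins and their ligands, FLRT and ELFN proteins, and immunoglobulin adhesion proteins. They were chosen by gene symbol, and all 42 of them are listed among the 24421 genes of each count file. These and the other gene lists were chosen with earlier results of these data known, so the shares of members below are not those of a blind list. APP, APLP1 and APLP2 themselves have adhesive extracellular domains and are found at synapses, and the question was whether other adhesion genes are expressed at a higher level when the APP family is lost.

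RNA-seq was performed on the neocortex (NCX) and the hippocampus (HP) of conditional triple knockout (cTKO) mice, which lack the APP family in part of their neurons, and of littermate controls, with 5 libraries for each genotype in each region and 20 in all. The cTKO mice carry floxed alleles of the 3 genes, which the study writes as fAPP/fAPP, fAPLP1/fAPLP2 and fAPLP2/fAPLP2, together with Camk2a-Cre, a transgene that is active in excitatory neurons of the forebrain after birth. The controls carry the same floxed alleles without Cre, although the labels call them wild type. All mice were 3 months old, of both sexes and of a hybrid background of the C57BL/6J and 129 strains. The deletion is limited to excitatory neurons whereas the RNA came from the whole tissue, and in such bulk samples fewer cells of a type and less RNA per cell cannot be told apart. The RNA of the NCX and that of the HP were extracted with different kits, so region and kit cannot be told apart either.

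Neurexins and LAR-type receptor phosphatases (Ptprs, Ptprd and Ptprf) sit on the axon terminal and act as hubs. Each hub binds several postsynaptic partners: neuroligins, LRRTMs and calsyntenins pair with neurexins, while Slitrks, SALMs (the Lrfn genes), Lrrc4b and Il1rapl1 pair with the receptor phosphatases. Netrin-G proteins bind the leucine-rich repeat proteins encoded by Lrrc4c and Lrrc4, FLRTs bind latrophilins and ELFN proteins bind metabotropic glutamate receptors. Cadm, Igsf9, Ncam1, L1cam and Cntn1 proteins adhere through immunoglobulin domains.

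Total counts were 12169474 to 25331954 per library. For App, Aplp1 and Aplp2 the highest cTKO library lay below the lowest control in both regions, with App at 376 ± 30.7 against 1619 ± 123 CPM in the NCX and at 442 ± 12.3 against 1522 ± 98.9 CPM in the HP (mean ± SD, n = 5; CPM, normalised read count, from the counts per gene scaled to library totals with TMM factors). The excitatory neuron marker Slc17a7, a vesicular glutamate transporter gene, was at 1515 ± 92.8 CPM in control and 1746 ± 287 CPM in cTKO NCX. In the HP it was at 1562 ± 100.5 and 1818 ± 184.9 CPM. Over the 5 markers of excitatory neurons the log2 fold changes ran from -0.317 to 0.212 in the NCX. They ran from -0.319 to 0.225 in the HP, and none had an FDR under 0.05. Camk2a was at 5894 ± 273 CPM in control and 4705 ± 608 CPM in cTKO NCX (-0.32 on the log2 scale, FDR = 0.162, edgeR), and at 7981 ± 555 and 6881 ± 717 CPM in the HP (-0.21, FDR = 0.307). Gad2, a marker of inhibitory neurons, was at 233 ± 16.4 and 318 ± 57.8 CPM in the NCX (0.45, FDR = 0.121) and at 207 ± 17.9 and 253 ± 14.1 CPM in the HP (0.30, FDR = 0.0897). It had the highest estimate of the 6 inhibitory markers, which ran from -0.351 to 0.455 in the NCX and from -0.0724 to 0.298 in the HP. Vip, another of them, was at 33.3 ± 5.04 CPM in control and 26.0 ± 3.46 CPM in cTKO NCX. The part of such shifts in the adhesion genes was not tested. Among the marker genes of other cell types, Drd1, a dopamine receptor of striatal neurons, was the single one with an FDR under 0.05 between genotypes, at 1.92 on the log2 scale in the HP. The 3 striatal markers ran from 0.194 to 0.438 in the NCX and from 0.0337 to 1.92 in the HP. Adora2a, another of them, was at 1.37 ± 0.41 CPM in control and 1.41 ± 0.35 CPM in cTKO HP. A pair of libraries stood apart. cTKO neocortex 5 and cTKO hippocampus 4 held 676 and 425 CPM of 6 genes of embryonic tissue, while the other 18 libraries held at most 5.95 CPM. The genotype estimates of Igsf9 and Cadm3 are given below with and without these libraries. So is the count of members that differed between regions in cTKO mice. Estimates of other genes include these libraries unless a left-out library is named.

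In the NCX of cTKO mice 1 of the 42 adhesion genes, Igsf9, rose with an FDR under 0.05 (edgeR quasi-likelihood test), and in the HP none passed. Over all genes tested, 0.188% passed in the NCX, with 0.0867% of all genes higher in cTKO mice, and 0.489% passed in the HP. With DESeq2 the counts were 4 of 42 in each region (9.52%), beside 1.6% of all genes in the NCX and 2.42% in the HP. They were Igsf9, Cadm3 and Ptprf higher and Ptprs lower in the NCX, and Igsf9, Cadm3, Flrt3 and Clstn2 higher in the HP. The likelihood ratio test of edgeR passed 3 of 42 in each (7.14%), beside 1.21% of all genes in the NCX and 1.89% in the HP. With the quasi-likelihood test the remaining 41 genes of the NCX had an FDR of at least 0.128. At an unadjusted p under 0.05, 6 of 42 adhesion genes differed in the NCX (3 higher and 3 lower) and 7 of 42 in the HP (6 higher and 1 lower). These are 14.3% and 16.7% of the members, beside 10.4% of all genes tested in the NCX (5.57% higher, 4.86% lower) and 12% in the HP (6.13% higher, 5.88% lower). For the 42 genes the log2 fold changes had a median of -0.05 in the NCX and of 0.04 in the HP, while over every gene tested it was 0.01 and 0.00. The estimate was above 0 for 17 of 42 genes in the NCX (40.5%, beside 53.1% of all genes) and for 27 of 42 in the HP (64.3%, beside 51.6%). For 39 of 42 genes in each region the 95% interval of the genotype difference lay within 1.5-fold in either direction. Igsf9, Ptprf and Il1rapl1 in the NCX and Igsf9, Igsf9b and Elfn2 in the HP had intervals that reached past 1.5-fold.

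**Figure D1:**
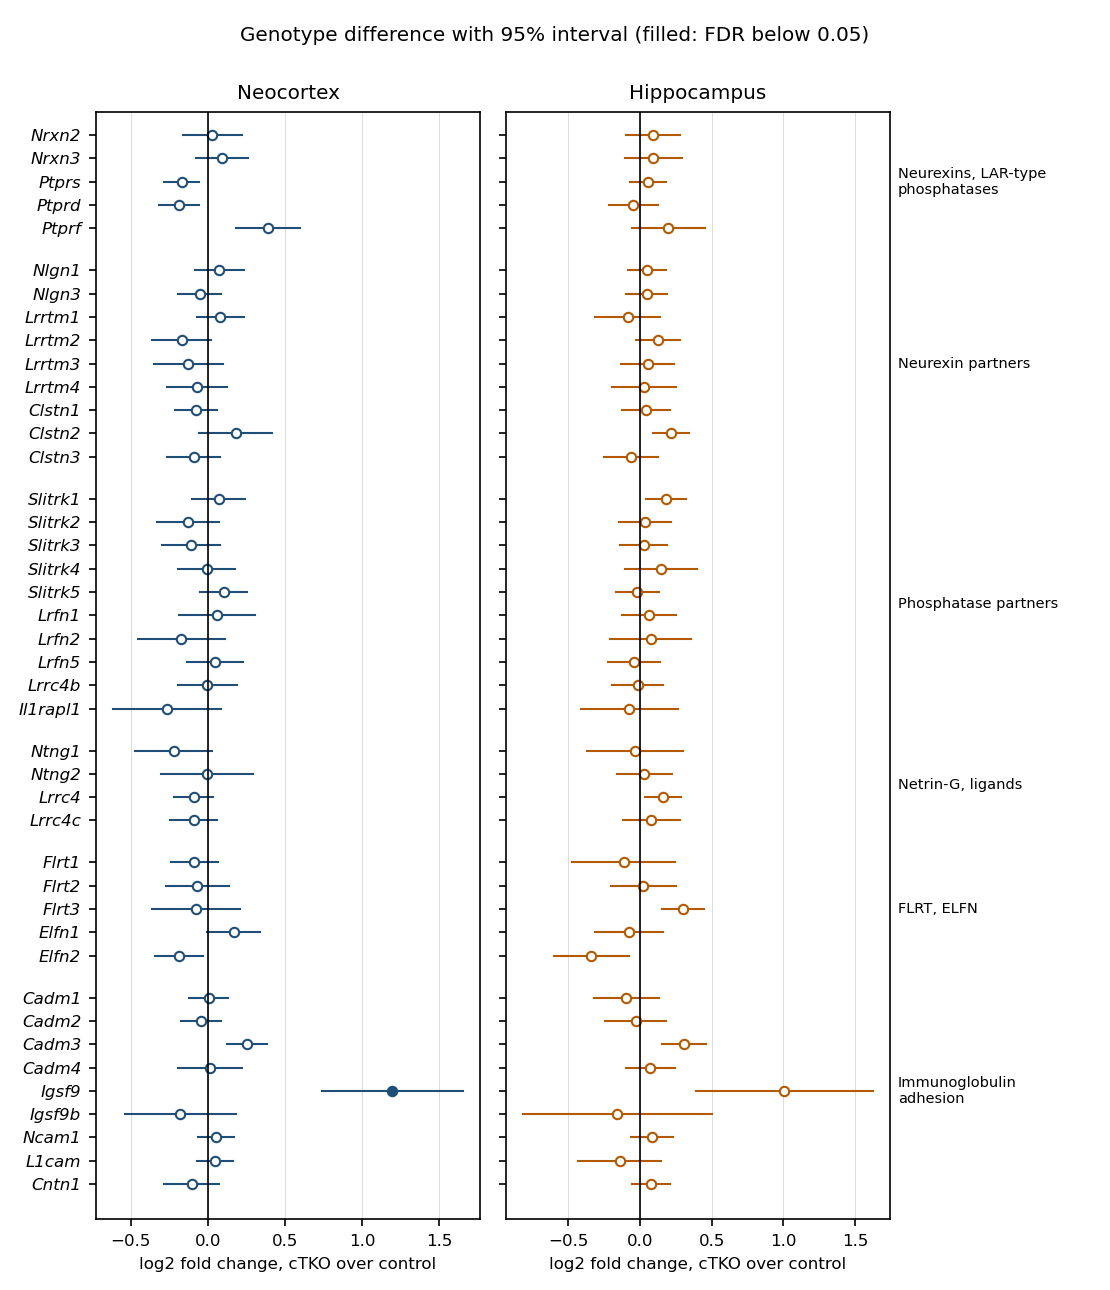
Log2 fold change of cTKO over control for the 42 adhesion genes in the NCX (left) and the HP (right), grouped by role, with the estimate as a point and its 95% interval as a line, from 5 against 5 libraries. The single filled point, Igsf9 in the NCX at 1.20, passed an FDR of 0.05, and Igsf9 in the HP lay at 1.01 with a longer interval.

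Igsf9 encodes an immunoglobulin-superfamily protein of neurons, also known as Dasm1 and related to the Drosophila protein Turtle. In the NCX the 5 control libraries measured 3.98, 5.30, 4.05, 5.29 and 4.66 CPM, and the 5 cTKO libraries measured 7.95, 7.68, 16.6, 8.81 and 12.4 CPM. Every cTKO library was above every control library, and the cTKO libraries were spread more widely. The rise was 1.20 ± 0.21 on the log2 scale (SE, FDR = 0.039, edgeR), with an exact two-sided permutation p of 0.00794, the smallest that 5 against 5 libraries can give. The FDR was above 0.05 when any 1 of the 5 controls was left out (0.104 to 0.135), and also without cTKO neocortex 2 (0.052) or 4 (0.0636). Over all 10 fits without 1 library the estimate ranged from 0.98 to 1.30.

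In the HP the 5 control libraries held Igsf9 at 2.41, 2.57, 2.80, 3.36 and 2.83 CPM, and the 5 cTKO libraries at 4.52, 6.05, 3.50, 10.4 and 3.57 CPM. Here, too, no cTKO library was as low as a control, although the lowest cTKO value of 3.50 lay close to the highest control value of 3.36. The difference of 1.01 ± 0.28 on the log2 scale did not pass correction (FDR = 0.165, edgeR, exact permutation p = 0.00794, higher in 5 of 5 cTKO libraries). The highest of these values came from cTKO hippocampus 4, which also held the embryonic genes and the highest sum of astrocyte markers (4750 CPM, against 1860 to 3120 CPM in the other 4 cTKO libraries). Gfap alone made up 3076 CPM of this sum. Gfap, Aqp4 and Aldh1l1 were highest in this library among cTKO HP libraries, whereas Slc1a3 (779 CPM) and Gja1 (324 CPM) were not. Without cTKO hippocampus 4 the log2 fold change of Igsf9 was 0.65 (FDR = 0.189). In the NCX, leaving out cTKO neocortex 5 gave 1.13 (FDR = 0.0309). The highest NCX value, 16.6 CPM in cTKO neocortex 3, belonged to a library with no more than 4.65 CPM of embryonic genes. The next highest, 12.4 CPM, was that of cTKO neocortex 5. The part of the embryonic genes in these values was not tested. The genotype effects in the 2 regions differed by -0.19 ± 0.37, and this interaction did not pass (FDR = 1, 95% interval -0.96 to 0.59).

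Igsf9 was also the member with the lowest level per kb of exon in control NCX, with raw counts of 49 to 97 per library there and of 48 to 265 over all 20 libraries. Its estimates carried a larger SE than those of most members, and in cTKO NCX Igsf9 had the highest SD of log2 CPM of all members (0.472). It lies on chromosome 1 of mm10 at chr1:172481788-172498878 on the plus strand. Its promoter is shown because no other adhesion gene passed the test, as the bases of the RefSeq promoter that lie in no annotated exon (chr1:172481963-172482198, GRCm38.p6, plus strand). GENCODE also lists a transcript that starts upstream of this stretch, which is why the stretch lies inside the gene's outer bounds. The sequence is given with capitals marking the letters of an E-box (CACGTG) and of a GC box (GGGCGG, here on the other strand).
Igsf9: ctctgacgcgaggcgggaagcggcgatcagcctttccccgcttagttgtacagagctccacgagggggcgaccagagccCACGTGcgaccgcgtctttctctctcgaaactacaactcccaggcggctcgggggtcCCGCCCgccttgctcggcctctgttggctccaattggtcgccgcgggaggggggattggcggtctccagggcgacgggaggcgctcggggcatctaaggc
Among 32851 mouse promoters, 6.02% held this E-box and 32.7% the GC box within the 250 bases before the start, on either strand. Of the 41 promoters that RefSeq lists for 31 of the 42 members, 4 (9.76%) and 13 (31.7%) did.

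Cadm3 encodes a nectin-like cell adhesion molecule of neurons and was the second highest member per kb of exon in control NCX. In the NCX it measured 690, 623, 663, 652 and 640 CPM in the controls and 822, 801, 768, 806 and 670 CPM in cTKO mice. The lowest cTKO value, 670 CPM, came from cTKO neocortex 5 and fell inside the control range, while the other 4 were above it. The log2 fold change was 0.25 ± 0.06 (FDR = 0.128, edgeR), and without cTKO neocortex 5 it was 0.30 with an FDR of 0.0157. In the HP it measured 545, 492, 513, 576 and 497 CPM in the controls and 688, 642, 624, 572 and 709 CPM in cTKO mice. Again 4 of 5 cTKO libraries were above all controls, and the fifth, cTKO hippocampus 4, was not. The estimate was 0.31 ± 0.07 (FDR = 0.0894, edgeR), and without this library it was 0.34 (FDR = 0.0543). With all libraries Cadm3 did not pass the quasi-likelihood test in either region, and it passed DESeq2 and the likelihood ratio test in both (lowest FDR = 0.00819 in the NCX and 0.00212 in the HP).

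The Cadm3 gene (chr1:173333258-173367695, minus strand) lies 834379 bases from Igsf9 on the same chromosome, and they were the members with the smallest p in the NCX. Between chr1:172000000-174000000, 21 genes were tested in both regions. In the NCX 4 of them were higher and 2 lower at an unadjusted p under 0.05, and in the HP 3 were higher and 4 lower. Of all genes tested, 10.4% differed in the NCX and 12% in the HP. The higher ones were Igsf9, Cadm3 and Ackr1 in both regions, joined by Tagln2 in the NCX. The stretch was placed around Igsf9 and Cadm3, so the counts of higher genes were in part set by that choice. Ifi203, an interferon-inducible gene of this stretch, was the single one to fall with an FDR under 0.05, by -1.07 on the log2 scale in the HP (FDR = 0.0186, edgeR), and was at -0.36 in the NCX (FDR = 0.631). Cadm3 overlaps Ackr1 in an exon on the same strand. Ackr1, which encodes a chemokine-binding receptor, was at 0.32 on the log2 scale in the NCX and at 0.35 in the HP (FDR = 0.273 and 0.116, edgeR), so that reads of the 2 genes could not be separated with certainty. The 250 bases before the Cadm3 start (chr1:173367696-173367945, GRCm38.p6, minus strand, RefSeq) are shown for comparison with Igsf9, with capitals marking an AP-1 site (TGANTCA).
Cadm3: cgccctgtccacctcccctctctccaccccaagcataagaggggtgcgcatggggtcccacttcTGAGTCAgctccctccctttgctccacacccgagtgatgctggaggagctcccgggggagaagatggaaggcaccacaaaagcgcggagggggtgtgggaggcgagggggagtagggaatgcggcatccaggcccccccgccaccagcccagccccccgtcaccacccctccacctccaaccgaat
Neither stretch held a CRE (TGACGTCA), a motif of 1.55% of all promoters and of 2 of the 41 members' promoters, and the AP-1 site was in 6.75% of all promoters and in 3 of the 41.

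**Figure D2:**
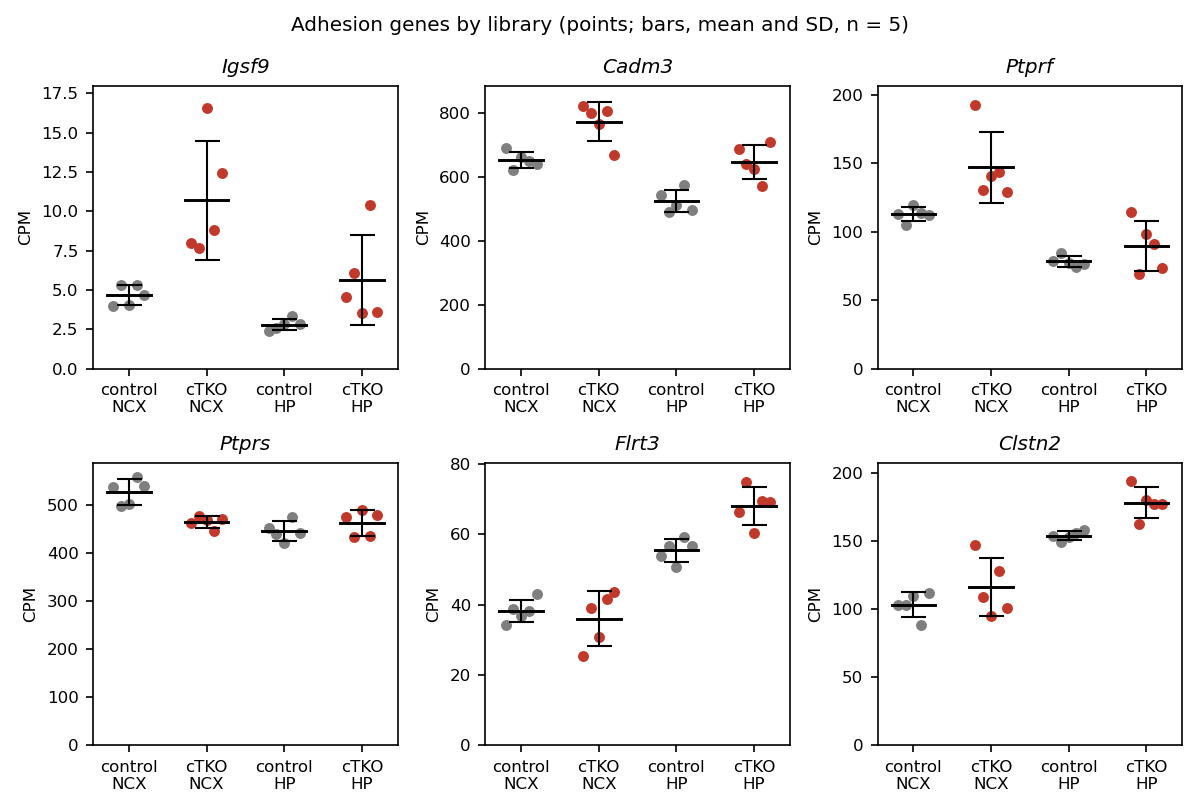
Expression in CPM by library (points) of Igsf9, Cadm3, Ptprf, Ptprs, Flrt3 and Clstn2 in control (grey) and cTKO (red) libraries of the NCX and the HP, with horizontal bars for the mean and error bars for the SD of 5 libraries. Igsf9 is higher in all cTKO libraries of both regions, the libraries of Ptprf and Ptprs do not overlap between genotypes in the NCX, and those of Flrt3 and Clstn2 do not overlap in the HP.

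Of the 5 presynaptic hub genes, 1 was higher and 2 were lower at an unadjusted p under 0.05 in the NCX, and none was in the HP, where 4 of 5 estimates were above 0. These counts of a few genes, and those of the other roles below, stand beside 10.4% of all genes tested in the NCX and 12% in the HP. Ptprf, the phosphatase LAR, measured 113, 105, 119, 114 and 112 CPM in control NCX and 192, 130, 140, 144 and 129 CPM in cTKO NCX. The groups did not overlap, with cTKO neocortex 1 well above the rest. The difference was 0.39 ± 0.10 on the log2 scale (FDR = 0.135, edgeR, exact permutation p = 0.00794), and 0.27 without cTKO neocortex 1. In the HP the 5 control libraries of Ptprf lay at 74.1 to 84.5 CPM and the 5 cTKO libraries at 69.3 to 114 CPM, so that the genotypes overlapped (0.20 ± 0.12 on the log2 scale, FDR = 0.555, edgeR).

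Ptprs, the receptor phosphatase sigma, which also binds heparan sulfate proteoglycans, went the other way in the NCX. It measured 537, 498, 502, 559 and 539 CPM in the controls and 463, 477, 470, 445 and 472 CPM in cTKO mice, with no overlap. This was a difference of -0.17 ± 0.05 on the log2 scale (FDR = 0.233, edgeR, exact permutation p = 0.00794). In the HP the estimate was 0.06 ± 0.06 (FDR = 0.77, edgeR). Ptprd, the receptor phosphatase delta, measured 416, 406, 419, 394 and 362 CPM in control NCX and 348, 353, 329, 330 and 381 CPM in cTKO NCX. The ranges overlapped only through control neocortex 5 and cTKO neocortex 5, and the log2 fold change was -0.19 ± 0.06 (FDR = 0.274, edgeR). Nrxn2 and Nrxn3, the neurexin genes of the list, had log2 fold changes of 0.03 to 0.09 over both regions, each with an interval within 1.5-fold.

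Counts of genes whose 5 cTKO and 5 control libraries do not overlap were 3 of 42 members in the NCX (Igsf9 and Ptprf higher, Ptprs lower) and 3 of 42 in the HP (Igsf9, Flrt3 and Clstn2, all higher). This is 7.14% of the members in each region, beside 2.39% of all genes tested in the NCX (0.795% higher, 1.6% lower) and 3.01% in the HP (1.76% higher).

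Among the postsynaptic partners of neurexins, none of 9 differed in the NCX at an unadjusted p under 0.05 and 1 of 9 did in the HP. This was Clstn2, calsyntenin 2, a cadherin-repeat protein of the postsynaptic membrane. In the HP it measured 153, 149, 152, 156 and 158 CPM in the controls and 194, 162, 180, 177 and 177 CPM in cTKO mice. All 5 cTKO libraries were above all 5 controls, and the controls varied little. Clstn2 differed by 0.22 ± 0.06 on the log2 scale (FDR = 0.136, edgeR, exact permutation p = 0.00794). In the NCX the controls lay at 88.1 to 111 CPM and the cTKO libraries at 94.7 to 147 CPM, with a log2 fold change of 0.18 ± 0.11 (FDR = 0.61, edgeR), which was 0.08 without cTKO neocortex 1. The neuroligins, the classical neurexin receptors, stayed within 0.08 of 0 in both regions (Nlgn1 0.07 and 0.05, Nlgn3 -0.05 and 0.05, NCX and HP). The 4 LRRTM genes lay between -0.17 and 0.08 in the NCX and between -0.09 and 0.13 in the HP. Clstn1, the most abundant member, changed by -0.08 ± 0.06 in the NCX and by 0.04 ± 0.08 in the HP on the log2 scale, neither passing (FDR = 0.724 and 0.901, edgeR).

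The partners of the receptor phosphatases gave no gene at an unadjusted p under 0.05 in the NCX and 1 of 10 in the HP. Slitrk1, a leucine-rich repeat protein that promotes excitatory synapses in culture, measured 99.1, 92.6, 85.3, 92.7 and 100 CPM in control HP and 109, 108, 112, 93.2 and 109 CPM in cTKO HP. All cTKO libraries but cTKO hippocampus 4 were above all controls, and the log2 fold change was 0.18 ± 0.06 (FDR = 0.291, edgeR). In the NCX it was 0.07 ± 0.08. The other 4 Slitrk genes lay between -0.13 and 0.10 in the NCX and between -0.02 and 0.15 in the HP. The SALM genes Lrfn1, Lrfn2 and Lrfn5 lay between -0.17 and 0.06 in the NCX and between -0.04 and 0.08 in the HP. Lrrc4b, which encodes NGL-3, was at 0.00 ± 0.09 and -0.02 ± 0.08 on the log2 scale. Il1rapl1, an interleukin receptor accessory-like protein and an X-linked intellectual disability gene in humans, had the lowest estimate of all members in the NCX, -0.27 ± 0.16 (FDR = 0.611, edgeR), at 5.0 to 9.84 CPM over both genotypes.

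All 4 genes of the netrin-G group had estimates below 0 in the NCX, from -0.22 for Ntng1 to -0.01 for Ntng2, and none had an unadjusted p under 0.05. In the HP 1 of 4 did. Lrrc4, which encodes NGL-2, the ligand of netrin-G2, measured 150, 149, 136, 150 and 146 CPM in the controls and 167, 171, 167, 148 and 161 CPM in cTKO mice. Only the library with embryonic genes, cTKO hippocampus 4, fell among the controls. The log2 fold change was 0.16 ± 0.06 (FDR = 0.279, edgeR), against -0.09 ± 0.06 in the NCX.

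Among the FLRT and ELFN genes, Flrt3 was the member closest to the threshold in the HP. FLRT3 binds latrophilins on the terminal and Unc5 receptors. In the HP it measured 53.9, 56.8, 50.8, 59.2 and 56.8 CPM in the controls and 66.3, 74.9, 60.4, 69.7 and 69.3 CPM in cTKO mice. All 5 cTKO libraries were above all 5 controls, although cTKO hippocampus 3, at 60.4 CPM, lay just above the highest control of 59.2 CPM. The difference was 0.30 ± 0.07 on the log2 scale (FDR = 0.0861, edgeR, exact permutation p = 0.00794). Leaving out cTKO hippocampus 3 gave an FDR of 0.0414. In the NCX the cTKO libraries, at 25.3, 39.1, 30.7, 41.5 and 43.6 CPM, covered the whole control range of 34.3 to 43.1 CPM, and the log2 fold change was -0.08 ± 0.13 (FDR = 0.893, edgeR).

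Elfn2, which encodes a leucine-rich repeat protein of the postsynaptic membrane, was the single member with a lower estimate at an unadjusted p under 0.05 in both regions. It measured 170, 155, 157, 188 and 185 CPM in control NCX and 167, 149, 146, 152 and 133 CPM in cTKO NCX. In the HP it measured 184, 188, 169, 192 and 211 CPM in the controls and 167, 106, 176, 130 and 164 CPM in cTKO mice. A single cTKO library in each region, cTKO neocortex 1 and cTKO hippocampus 3, lay inside the control range and the other 4 lay below it. The log2 fold changes were -0.19 ± 0.07 in the NCX (FDR = 0.377, edgeR) and -0.34 ± 0.12 in the HP (FDR = 0.286, edgeR). Elfn1, which recruits mGluR7 to terminals on somatostatin interneurons, was at 0.17 ± 0.08 in the NCX and -0.07 ± 0.11 in the HP, and Flrt1 and Flrt2 lay between -0.11 and 0.02.

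Of the other immunoglobulin adhesion genes, Igsf9b, the paralog of Igsf9 that is found at inhibitory synapses, did not share its direction. Its estimates were -0.18 ± 0.17 in the NCX and -0.16 ± 0.30 in the HP (FDR = 0.769 and 0.903, edgeR), with cTKO libraries at 17.7 to 42.5 CPM and at 2.74 to 10.4 CPM. Cadm1, Cadm2 and Cadm4 lay between -0.04 and 0.01 in the NCX and between -0.10 and 0.07 in the HP. Ncam1 was at 0.05 and 0.08, L1cam at 0.05 and -0.14 and Cntn1 at -0.10 and 0.08 on the log2 scale in the NCX and the HP, each with an unadjusted p above 0.2.

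No adhesion gene had a genotype effect that differed between the regions with an FDR under 0.05, beside 0.0564% of all genes tested for the interaction. At an unadjusted p under 0.05, 4 of 42 members (9.52%) differed, beside 3.75% of all genes, and all 4 had the higher estimate in the HP, as did 2.06% of all genes. DESeq2 and the likelihood ratio test passed no member either. They were Lrrc4 (0.26 ± 0.08, FDR = 0.661), Ptprs (0.24 ± 0.07, FDR = 0.661), Lrrtm2 (0.31 ± 0.12, FDR = 1) and Flrt3 (0.39 ± 0.15, FDR = 1), given as the difference of log2 fold changes with its SE from edgeR. Lrrtm2 encodes a neurexin-binding leucine-rich repeat protein, and its exon overlaps Ctnna1 on the opposite strand. Whether counting used strand is not given in the sources used here.

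Other adhesion and synaptic organizer genes, 58 in 5 lists (secreted organizers such as cerebellins and neuronal pentraxins, latrophilins and teneurins, other membrane partners, contactins and the L1 family, and cadherins with ephrin-B and Eph receptors), gave no gene with an FDR under 0.05 in either region with the quasi-likelihood test of edgeR. DESeq2 passed 2 of them in the NCX (Mdga1 and Adgrl2), beside 1.6% of all genes. In the HP it passed 4 (Cdh9, C1ql2, Ncam2 and Nptx2), beside 2.42% of all genes. The likelihood ratio test passed none in the NCX and the same 4 in the HP, beside 1.21% and 1.89% of all genes. At an unadjusted p under 0.05, 11 of 58 (19%) differed in the NCX, 5 higher and 6 lower, beside 10.4% of all genes tested. In the HP 13 of 58 (22.4%) differed, 9 higher and 4 lower, beside 12% of all genes. The median log2 fold change of the 58 genes was -0.01 in the NCX and 0.03 in the HP. Single estimates ran from -0.38 (Mdga1) to 1.23 (Nptx2) in the NCX and from -0.459 (Cntn5) to 1.72 (Nptx2) in the HP. The smallest p values of the NCX belonged to Mdga1, an inhibitor of neuroligin binding (-0.38 ± 0.10, FDR = 0.182), Adgrl2, a latrophilin (-0.27 ± 0.07, FDR = 0.187), and Cdh13, a GPI-anchored cadherin (0.32 ± 0.09, FDR = 0.195, all from edgeR). Mdga1 measured 35.0, 38.3, 29.5, 43.2 and 41.3 CPM in control NCX and 26.2, 32.0, 30.2, 27.6 and 27.3 CPM in cTKO NCX, so that cTKO neocortex 2 and 3 reached into the control range.

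In the HP the smallest p values belonged to Cdh9, a cadherin of mossy fibre synapses, C1ql2, a secreted C1q-like protein of mossy fibres, and Ncam2, a paralog of Ncam1. Cdh9 measured 42.2, 46.9, 49.1, 46.5 and 46.5 CPM in the controls and 54.0, 74.8, 75.2, 91.9 and 57.9 CPM in cTKO mice, with no overlap (log2 fold change 0.62 ± 0.13, FDR = 0.0568, edgeR). C1ql2 measured 64.5, 109, 79.6, 98.7 and 83.2 CPM in the controls and 176, 176, 93.3, 134 and 162 CPM in cTKO mice, where cTKO hippocampus 3 overlapped the controls (0.77 ± 0.17, FDR = 0.0861, edgeR). Ncam2 measured 69.4 to 74.3 CPM in the 5 controls and 81.1 to 102 CPM in the 5 cTKO libraries, again with no overlap (0.28 ± 0.07, FDR = 0.115, edgeR). The marker list of dentate granule cells, which includes C1ql2, summed to 174 to 275 CPM in control HP and to 238 to 314 CPM in cTKO HP. Within it C1ql2 itself had the higher estimate, whereas Dsp was at 66.4 ± 16.6 CPM in control HP and at 37.2 ± 8.70 CPM in cTKO HP (-0.83 on the log2 scale, FDR = 0.0861, edgeR) and Prox1 at 0.21 on the log2 scale (FDR = 0.52). The part of granule cell number in these values was not tested.

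Expression in cTKO libraries was also more variable. The median SD of log2 CPM over the 42 genes was 0.109 in control NCX and 0.146 in cTKO NCX, and 0.107 in control HP and 0.176 in cTKO HP. The same held over 13442 genes, for which it was 0.123 and 0.17 in the NCX and 0.123 and 0.182 in the HP.

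Differences between the regions were far larger than those between the genotypes. In control mice 33 of 42 adhesion genes (78.6%) differed between HP and NCX with an FDR under 0.05, 11 higher and 22 lower in the HP. Of all genes tested, 59.1% differed, 29.8% higher and 29.2% lower. The 5 control libraries of each region did not overlap for 27 of 42 members (64.3%), beside 44% of all genes. The median log2 fold change of HP over NCX was -0.20 for the members and 0.01 over all genes. In a fit that pairs controls of the same number, 35 members passed, the 2 added ones being Cntn1 and Elfn2. The share of all genes that passed in this fit is not given here, so the added calls are not read as particular to adhesion genes.

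**Figure D3:**
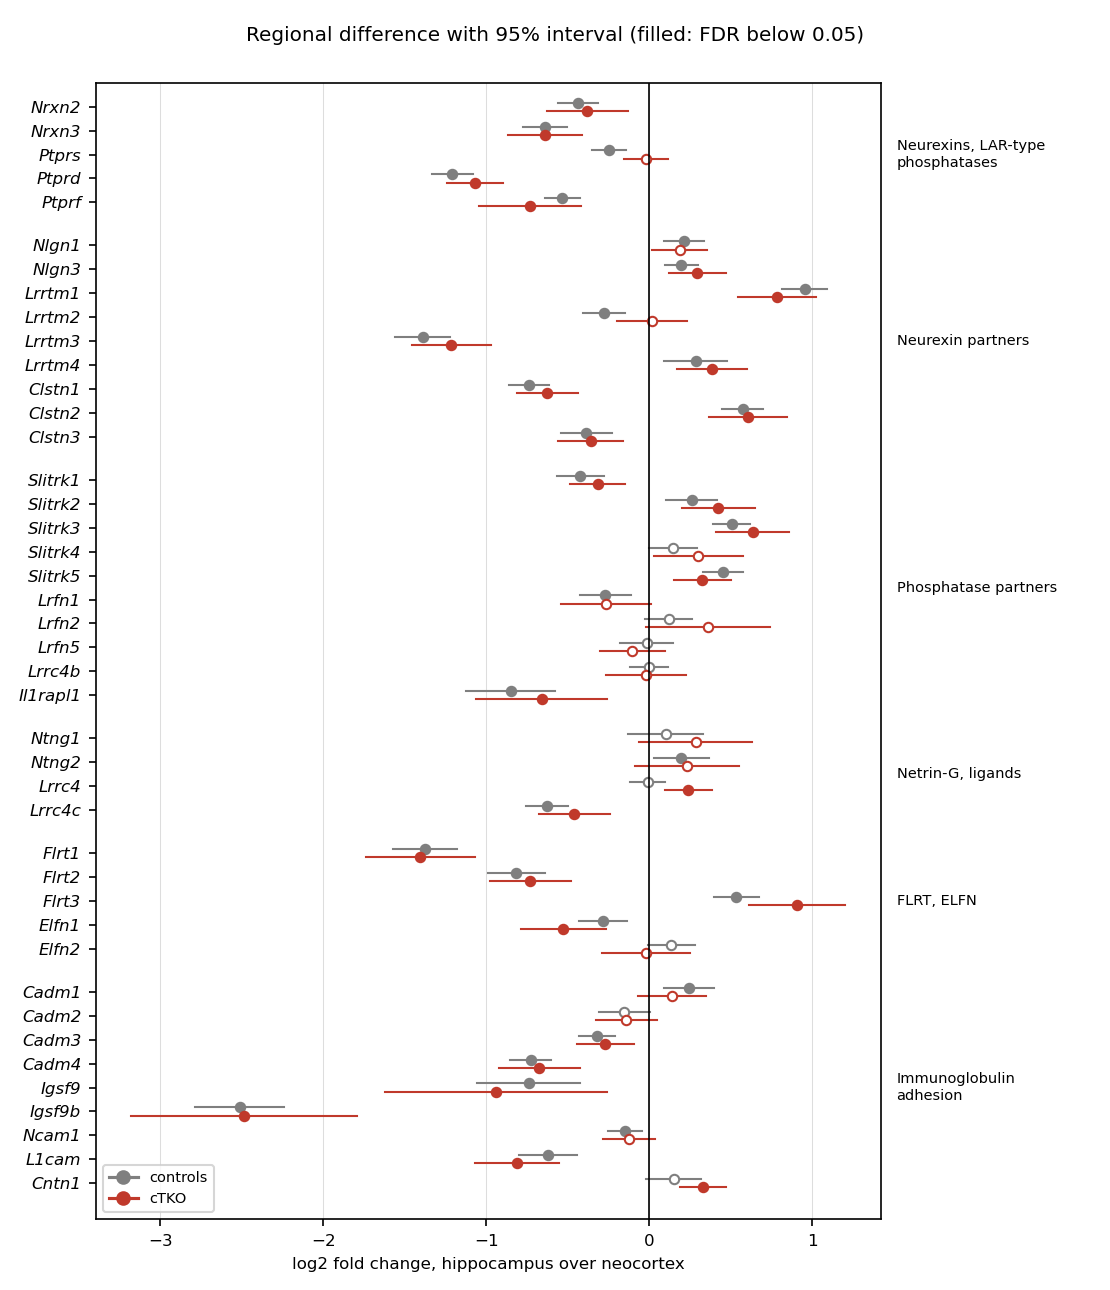
Log2 fold change of HP over NCX for the 42 adhesion genes in controls (grey) and cTKO mice (red), grouped by role, with 95% intervals from 5 against 5 libraries and filled points for an FDR under 0.05. The 5 presynaptic hub genes lie left of 0 in controls, Igsf9b lies farthest left at -2.51, and Lrrtm1 lies farthest right among controls at 0.95.

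All 5 presynaptic hubs were lower in the HP of controls, by a median of -0.53 on the log2 scale. Ptprd showed the largest of these differences. It measured 416, 406, 419, 394 and 362 CPM in control NCX and 181, 155, 166, 177 and 188 CPM in control HP, a log2 fold change of -1.21 ± 0.06 (FDR = 2.64e-10, edgeR). The other 4 hubs lay between -0.64 (Nrxn3) and -0.25 (Ptprs). For each hub gene every control HP library was below every control NCX library, and over all genes tested 44% did not overlap in either direction. The regional counts of hubs, and those of the other roles below, stand beside 59.1% of all genes tested (29.8% higher, 29.2% lower).

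The postsynaptic partners of neurexins all differed between the regions but in opposite directions, with 5 of 9 higher and 4 of 9 lower in the HP. Lrrtm1 and Lrrtm3, leucine-rich repeat proteins that bind neurexins, were the extremes. Lrrtm1 measured 57.1, 50.0, 53.5, 52.0 and 52.6 CPM in control NCX and 102, 110, 86.1, 108 and 111 CPM in control HP (log2 fold change 0.95 ± 0.07, FDR = 1.05e-08, edgeR). Lrrtm3 measured 64.6, 62.9, 62.9, 61.4 and 70.8 CPM in control NCX and 24.5, 25.5, 20.1, 24.8 and 28.8 CPM in control HP (-1.39 ± 0.08, FDR = 1.15e-09, edgeR). At a similar level in the NCX in CPM, the 2 genes moved apart in the HP. Lrrtm2 was at -0.28 ± 0.06 and Lrrtm4, known from dentate granule cells, at 0.29 ± 0.09. The calsyntenins split in the same way, with Clstn1 at -0.74 ± 0.06, Clstn3 at -0.39 ± 0.07 and Clstn2 at 0.57 ± 0.06. Clstn2 was at 88.1 to 111 CPM in control NCX and at 149 to 158 CPM in control HP. The neuroligins were slightly higher in the HP, Nlgn1 by 0.21 ± 0.06 and Nlgn3 by 0.20 ± 0.05.

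Of the partners of receptor phosphatases 3 of 10 were higher and 3 of 10 lower in control HP, close to the shares of all genes (29.8% and 29.2%). Slitrk3, which acts at inhibitory synapses through Ptprd, was at 68.9 to 78.3 CPM in control NCX and at 101 to 113 CPM in control HP (0.51 ± 0.05, FDR = 1.17e-06, edgeR). Its presynaptic partner Ptprd was lower in the HP, as given above. Slitrk5 was higher in the HP (0.45 ± 0.06, FDR = 8.22e-06) and so was Slitrk2 (0.26 ± 0.07), whereas Slitrk1 (-0.42 ± 0.07), Lrfn1 (-0.27 ± 0.07) and Il1rapl1 were lower. Il1rapl1 was at 7.45 to 9.84 CPM in control NCX and at 3.77 to 6.03 CPM in control HP (-0.85 ± 0.13, FDR = 3.98e-05, edgeR). Slitrk4, Lrfn2, Lrfn5 and Lrrc4b did not pass, and Lrrc4b had the narrowest interval around 0, from -0.12 to 0.11.

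In the netrin-G group Lrrc4c, the ligand of netrin-G1, was lower in control HP (-0.63 ± 0.06, FDR = 3.59e-07) and Ntng2 was slightly higher (0.20 ± 0.08, FDR = 0.0439, both edgeR). Lrrc4 (-0.01 ± 0.05) and Ntng1 (0.10 ± 0.11) did not pass. The 3 FLRT genes diverged. Flrt1 measured 52.2, 48.6, 44.4, 48.2 and 49.7 CPM in control NCX and 23.7, 18.7, 17, 15.9 and 18.9 CPM in control HP, a log2 fold change of -1.38 ± 0.09 (FDR = 7.33e-09, edgeR). Flrt2 was at -0.82 ± 0.08, and Flrt3 was higher in the HP at 0.53 ± 0.07 (FDR = 5.11e-06). Flrt3 had 34.3 to 43.1 CPM in control NCX and 50.8 to 59.2 CPM in control HP. Elfn1 was lower in the HP (-0.28 ± 0.07).

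Igsf9b showed the largest regional difference of all members. It measured 38.0, 30.8, 31.5, 32.4 and 38.1 CPM in control NCX and 6.58, 4.97, 5.47, 4.94 and 8.28 CPM in control HP (-2.51 ± 0.13, FDR = 3.83e-10, edgeR). Igsf9, Cadm3, Cadm4, L1cam and Ncam1 were lower in control HP as well, by -0.74, -0.32, -0.73, -0.62 and -0.15 on the log2 scale, and Cadm1 was higher by 0.24. The marker list of inhibitory neurons summed to 891 to 1020 CPM in control NCX and to 718 to 905 CPM in control HP, and that of astrocytes to 1130 to 1320 CPM and 1890 to 2400 CPM. The part of cell composition in the regional differences was not tested.

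In cTKO mice 28 of 42 adhesion genes differed between the regions, 10 higher and 18 lower in the HP. This is 66.7% of the members, beside 41.3% of all genes tested (20.2% higher, 21.1% lower). The groups did not overlap for 20 of 42 (47.6%), beside 28.6% of all genes. The 5 members most higher and the 5 most lower in the HP of controls all passed in cTKO mice with the same sign. Igsf9b was at -2.48 ± 0.32, Flrt1 at -1.40 ± 0.15, Lrrtm3 at -1.22 ± 0.11, Ptprd at -1.07 ± 0.08 and Il1rapl1 at -0.66 ± 0.19. On the other side Flrt3 was at 0.91 ± 0.14, Lrrtm1 at 0.79 ± 0.11, Slitrk3 at 0.64 ± 0.10, Clstn2 at 0.61 ± 0.11 and Slitrk5 at 0.33 ± 0.08. Without both libraries that held embryonic genes, 29 members passed, a comparison added after the data were seen and without the share of all genes beside it. Ptprs, a hub that was lower in control HP, was at -0.02 ± 0.06 in cTKO mice (FDR = 0.821, edgeR), with cTKO libraries at 445 to 477 CPM in the NCX and at 433 to 490 CPM in the HP.

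Levels between genes were compared as CPM per kb of annotated exon. In control NCX Clstn1 was highest at 339 ± 17.4, followed by Cadm3 at 90.2 ± 3.49 and Cadm4 at 87.7 ± 1.63 CPM per kb (mean ± SD, n = 5). The SDs of Cadm3 and Cadm4 reached each other. The lowest levels were those of Igsf9b (2.05 ± 0.22), Il1rapl1 (0.972 ± 0.102) and Igsf9 (0.704 ± 0.097). In cTKO NCX Igsf9 was at 1.62 ± 0.57 CPM per kb, above Il1rapl1 at 0.805 ± 0.20 and with an SD that reached Igsf9b at 1.79 ± 0.53. The rise therefore left Igsf9 among the 3 members with the lowest level.

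**Figure D4:**
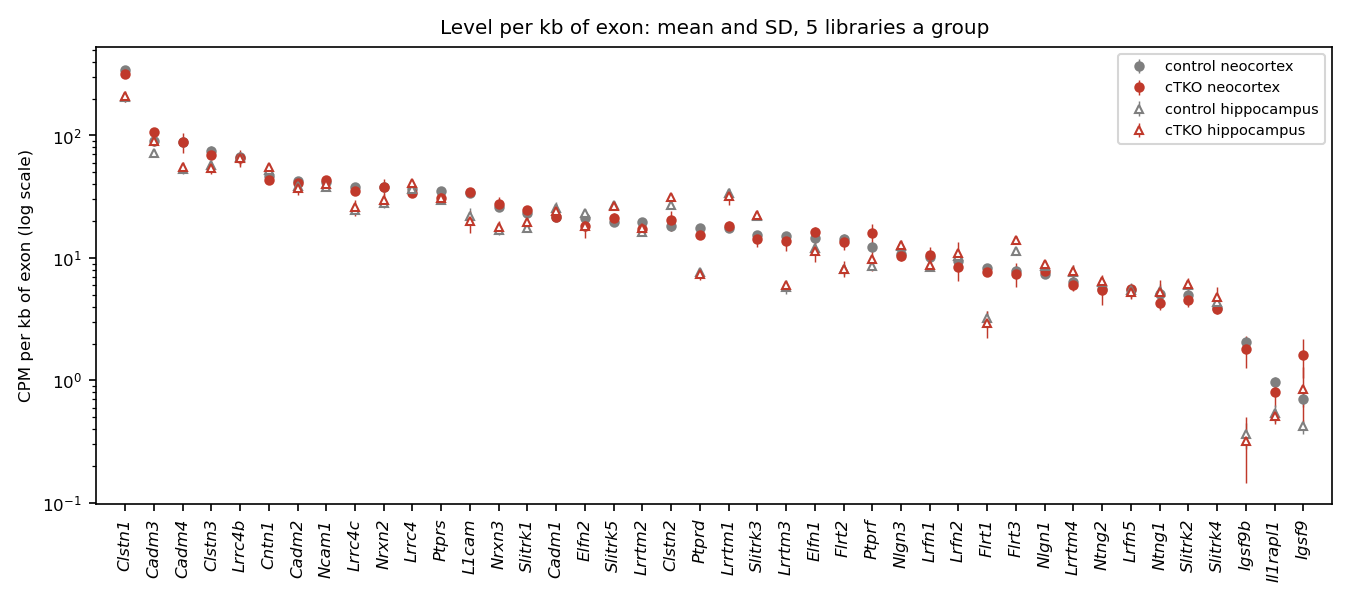
Level of each of the 42 adhesion genes in CPM per kb of exon on a log axis, as mean and SD of 5 libraries, for control (grey) and cTKO (red) NCX (filled circles) and HP (open triangles), ordered by control NCX. Clstn1 stands at the left at 339 and Igsf9 at the right at 0.704 in control NCX, and the red and grey symbols of a region lie close together for most genes.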

How the data were processed

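Poly-A RNA of the NCX and the HP, extracted with the RNeasy Plus Universal kit and the RNeasy Plus Mini kit respectively, was sequenced as single-end reads of TruSeq libraries. The authors mapped reads to mm10 with STAR 2.5.4a and counted them on genes with HTSeq, and they deposited raw counts per gene and library. The annotation and strand setting are not given in the sources used here. All columns were mapped to samples by their labels.

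Counts were analysed with edgeR 4.0.16 in R 4.3.3. Genes with CPM above 1 in at least 5 libraries of a comparison were kept (at least 13702 genes), library sizes were scaled by TMM, and groups were compared with the quasi-likelihood test with Benjamini-Hochberg adjustment (FDR) over all genes tested. All 42 members passed this filter in every comparison. The interaction was fitted over 20 libraries. The code was tested on simulated data. The p-values measure the spread between libraries of a group. Exact permutation tests were two-sided, over 252 splits of log2 CPM (prior count 2). Exon lengths, positions and overlaps are from GENCODE vM21, and promoters from RefSeq. Figures were drawn with matplotlib 3.10.9. Members and gene lists were chosen with earlier results of these data known.

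Genes described in full were members with an unadjusted p under 0.05 between genotypes (values of each library where the FDR was under 0.05 or the genotypes did not overlap), the 5 most higher and 5 most lower in the HP of controls, the 3 highest and 3 lowest per kb, any with an FDR under 0.05 for the interaction, and the 3 smallest p of the 58 other adhesion genes in each region if none passed. Values of each library of Cadm3, Elfn2, Lrrc4, Ptprd, Slitrk1, of 4 genes of the regional comparison and of genes outside the 42 were added after their values were seen.

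Depth was 12169474 to 25331954 counts, and 3 counts, taken as the smallest level a library can show, were 0.123 to 0.248 CPM, for counting error only. The labels do not say that libraries with the same number share a mouse. Deviations of same-numbered control libraries of the 2 regions correlated at 0.11 to 0.32 in all 5 pairs, so the numbers were taken to pair controls between regions; regional values are from the fit without pairs, and the paired fit is given where it changed a call. Same-numbered libraries of the 2 genotypes correlated at 0.0082 to 0.21 in the NCX and -0.15 to 0.12 in the HP, and cTKO libraries between regions at -0.079 to 0.37, and were not taken as paired. Differently numbered libraries of the 2 regions correlated at -0.28 to 0.13 in controls and at -0.4 to 0.58 in cTKO mice. Those of the 2 genotypes correlated at -0.23 to 0.12 in the NCX and at -0.18 to 0.19 in the HP. The alternatives were DESeq2 1.42.0, the edgeR likelihood ratio test, RLE size factors, other filters, a replicate block, a prior count of 0.5 and leaving out each library.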

Additional observations from a re-analysis of the deposited data

Results flagged for a closer look

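In 9 of 168 groups of 5 libraries (42 genes in 4 groups, 5.36%), the highest or lowest library of an adhesion gene lay apart from the other 4 by Dixon's criterion, which chance meets in about 1 in 20 groups. In cTKO neocortex 5, Nrxn2 was lowest at 399 CPM, the next library being at 526 CPM. In cTKO neocortex 1, Ptprf was highest at 192 CPM, the next being at 144 CPM. In cTKO neocortex 3, Lrrtm2 was lowest at 81.7 CPM and Ntng2 was highest at 31.6 CPM. In cTKO hippocampus 4, Slitrk1 was lowest at 93.2 CPM and Lrfn1 was lowest at 27.6 CPM. In cTKO hippocampus 1, Slitrk3 was lowest at 90.2 CPM. In control hippocampus 3, the library with the most choroid plexus RNA (2600 CPM of 3 markers), Lrrc4b was lowest at 171 CPM. In control neocortex 4, Il1rapl1 was lowest at 7.45 CPM. Of these 9 values, 3 came from the pair of libraries that held embryonic genes, and the part of those genes in them was not tested.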

How the results depend on the processing

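The number of genes with an FDR under 0.05 between genotypes depended on the test. In the NCX it was 26 with the quasi-likelihood test, 221 with DESeq2, 167 with the likelihood ratio test, 42 without a filter and 12 with the replicate block, and 7 to 133 when 1 library was left out (120 without cTKO neocortex 3 and 133 without cTKO neocortex 5). Adhesion genes among them numbered 1, then 4 with DESeq2 (Igsf9, Cadm3 and Ptprf higher, Ptprs lower), 3 with the likelihood ratio test (Igsf9, Cadm3 and Ptprf), 0 with the block, and 0 to 2 when 1 library was left out, Cadm3 being added without cTKO neocortex 5. In the HP 67 genes passed, 331 with DESeq2, 259 with the likelihood ratio test, and 15 to 149 when 1 library was left out (149 without cTKO hippocampus 5). Adhesion genes numbered 0, then 4 with DESeq2 (Igsf9, Cadm3, Flrt3 and Clstn2 higher), 3 with the likelihood ratio test (Igsf9, Cadm3 and Flrt3) and 0 to 1 when 1 library was left out, Flrt3 passing without cTKO hippocampus 3. For the interaction 8 genes passed, 26 with DESeq2, 26 with the likelihood ratio test, 18 with the block and 5 to 20 when 1 library was left out, in no case an adhesion gene. With the replicate block, which pairs libraries by number although genotypes were not shown to be paired, Igsf9 in the NCX had a log2 fold change of 1.13 and an FDR of 0.0823. Regional counts of adhesion genes stayed at 32 to 35 in controls and 27 to 29 in cTKO mice under all settings. When 1 library was left out, all genes that passed between regions numbered 7618 to 8026 in controls and 4848 to 5650 in cTKO mice. Among named genes the block changed the calls of Igsf9 in the NCX and of Elfn2 between regions in controls. One value turned its sign, Flrt3 in the NCX, which ranged from -0.157 to 0.0273 when 1 library was left out and was positive without cTKO neocortex 1. Over the 6 other fits the FDR ranged from 5.11e-05 to 0.0823 for Igsf9 in the NCX, from 0.0328 to 0.181 for Igsf9 in the HP and from 0.00544 to 0.0962 for Flrt3 in the HP. Of 650 values of named genes over all settings, 627 kept their direction and side of the threshold. The median SE of a genotype difference was 0.0839 in the NCX and 0.0862 in the HP on the log2 scale, and differences of that size were not detectable here.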
